A study of Rattus norvegicus with 4 samples.

Results

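The Hedgehog ligands, receptors and GLI factors were examined in RNA-seq of rat Schwann cells (SCs) in culture, which ensheathe and myelinate the axons of peripheral nerve. The group comprised 9 genes chosen by symbol from the 17949 genes of the deposited count table: the ligands Shh and Dhh, the receptor Ptch1 and the antagonist Hhip, the transducer Smo, the inhibitor Sufu, and the transcription factors Gli1, Gli2 and Gli3. All 9 had a row, and 8 of them passed a minimum of 10 counts in at least 2 samples and were among the 12446 genes tested. Hhip was the member below that minimum.

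Primary SCs from rat sciatic nerve were infected for 48 h, at 2 infectious units per cell, with a lentivirus expressing the Egr2 promoter antisense RNA (Lenti-AS, n = 2) or with a backbone virus carrying GFP as the control (Lenti-GFP, n = 2). The comparison asks how gene expression differs when the antisense RNA is expressed, and the submitters' description names sonic hedgehog signaling. The antisense construct carries a red fluorescent reporter in place of GFP, which is a further difference between the viruses. All cells grew in medium with 10% serum, 4 μM forskolin and 5 ng/ml heregulin-β1. Forskolin activates adenylyl cyclase and heregulin is an ErbB ligand, and both act on control and Lenti-AS cells alike. The strain, sex and age of the rats and whether the replicates came from separate animals are not given in the sources used here, so p-values measure only the spread between these samples.

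In the Hedgehog pathway, a secreted ligand binds Patched and so releases the membrane protein Smoothened from inhibition. Smoothened acts at the primary cilium and lets GLI proteins escape from SUFU and from phosphorylation by protein kinase A, which otherwise yields GLI repressor forms. GLI1 and PTCH1 are themselves classical target genes. In peripheral nerve, SCs are the known source of desert hedgehog (DHH), which signals to the surrounding connective tissue to form the perineurium, and sonic hedgehog (SHH) is known as a factor that SCs express after nerve injury.

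Library totals were between 74024323 and 96185890 counts. Levels are given as CPM, the counts of a gene per 1000000 counts of the library, with library totals scaled by edgeR's TMM factors. They are not divided by transcript length, so they compare samples for 1 gene and not genes with each other. The SC markers S100b and Erbb3 were present in every sample, and 1 of the 9 SC markers measured, Pou3f1, was called higher in Lenti-AS by edgeR. The antisense RNA itself was not analysed here, having no row of its own. Lenti-AS 2 stood apart by its globin genes, whose 5 members summed to 3001 CPM there and to 3.09 to 6.61 CPM elsewhere, and Lenti-AS 1 by collagen I (below).

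None of the 8 members tested passed an adjusted p under 0.05 and a fold change of at least 1.3 by edgeR's quasi-likelihood test, in either direction. In all genes tested, these cut-offs called 1.31% higher and 0.667% lower in Lenti-AS. At an unadjusted p under 0.05, 3 members were higher in Lenti-AS (Shh, Ptch1 and Sufu) and 0 lower, where 12.5% and 9.37% of all genes tested were. DESeq2 called 2 members higher, Shh and Sufu, and 0 lower, against 3.92% and 1.12% of all genes. The log2 fold change of Shh by edgeR was 0.68 without Lenti-AS 1 and 0.53 without Lenti-AS 2. That of Sufu was 0.40 without Lenti-AS 1 and 0.95 without Lenti-AS 2. In 6 of the 8 members, Shh, Ptch1, Smo, Sufu, Gli2 and Gli3, both Lenti-AS samples lay above both Lenti-GFP samples, an order that 27.7% of all genes tested showed. The reverse order, shown by 27.2% of all genes, occurred in 0 members. The median log2 fold change over the 8 members was 0.31, beside 0.0071 over all genes tested.

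**Figure D1:**
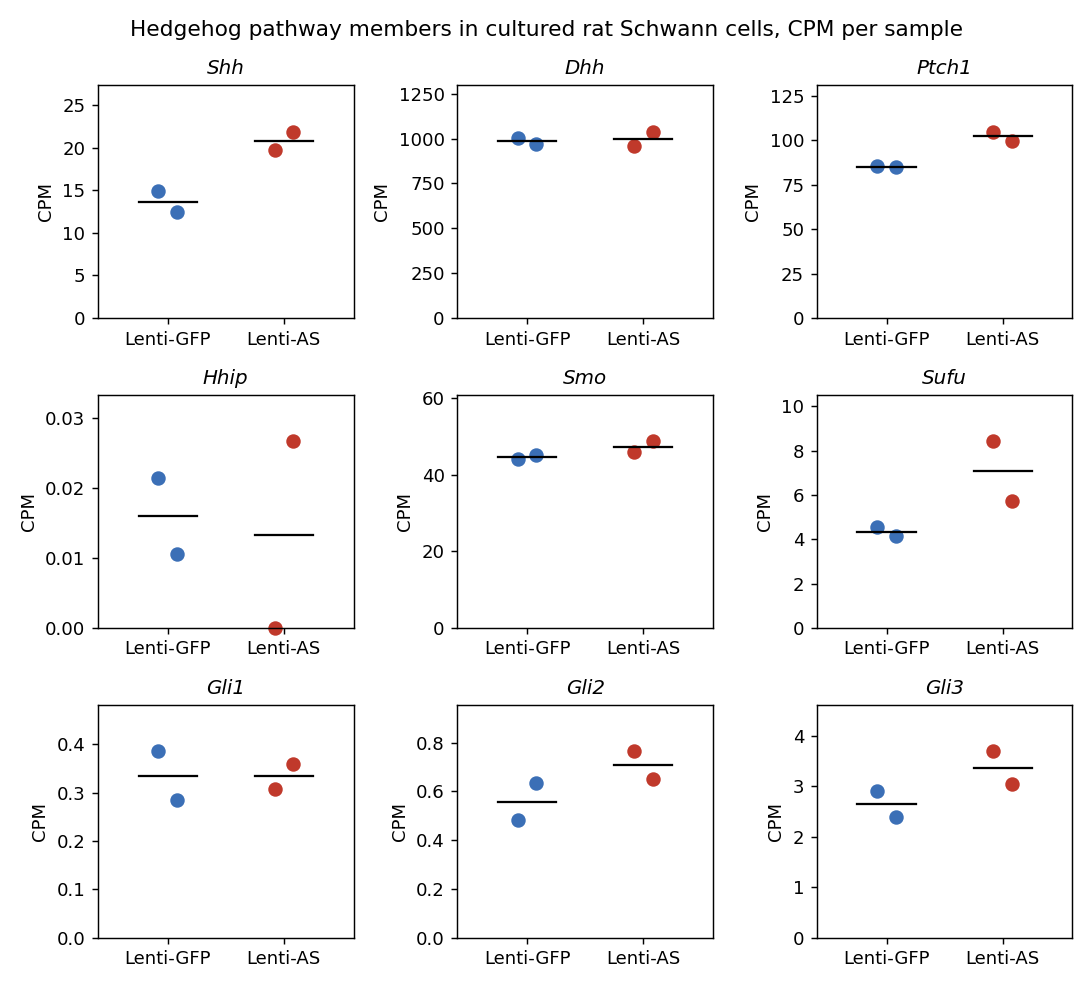
CPM of the 9 members in each of the 4 samples, with a panel and a linear axis from 0 for each gene. Points are samples and horizontal lines are group means (n = 2). The Lenti-AS points lie above both Lenti-GFP points for Shh, Ptch1, Smo, Sufu, Gli2 and Gli3, the groups overlap for Dhh and Gli1, and Hhip has at most 2 counts in any sample.

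Dhh, the ligand that SCs are known to secrete, had 1001 and 969 CPM in Lenti-GFP and 960 and 1039 CPM in Lenti-AS. The groups overlapped, with the lowest and the highest value both in Lenti-AS. Dhh alone took between 0.0955% and 0.106% of all counts of a sample and ranked between 93 and 105 among all genes by counts. The Lenti-GFP mean was 985 ± 22.5 CPM and the Lenti-AS mean 999.5 ± 55.6 CPM (SD, n = 2 for each). The fitted log2 fold change was 0.021 (standard error 0.061, adjusted p = 0.871 by edgeR), with a 95% interval from -0.13 to 0.17, that is from 0.915-fold to 1.13-fold. A change of Dhh of 1.3-fold in either direction lies outside this interval. The fitted value was 0.077 without Lenti-AS 1 and turned to -0.037 without Lenti-AS 2. In GRCr8, Dhh shares its position with Tuba1c, a tubulin gene on the opposite strand with 21.6 to 26.1 CPM, and the strand setting of the counting is not given in the sources used here.

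Shh, the second ligand, had 15.0 and 12.4 CPM in Lenti-GFP and 19.7 and 21.9 CPM in Lenti-AS, from 1396, 1176, 1730 and 1648 counts. Both Lenti-AS samples were higher, and the groups were 4.78 CPM apart, which exceeded the 2.55 CPM between the Lenti-GFP samples and the 2.18 CPM between the Lenti-AS samples. The Lenti-GFP mean was 13.7 ± 1.80 CPM and the Lenti-AS mean 20.8 ± 1.54 CPM (SD, n = 2 for each), a fold change of 1.52. The log2 fold change was 0.61 (standard error 0.12, 95% interval 0.32 to 0.89), and the unadjusted p = 0.00198 became an adjusted p = 0.0628 by edgeR, which misses the threshold. With DESeq2 the log2 fold change was also 0.61 and the adjusted p = 0.000614. Without Lenti-AS 1 the log2 fold change was 0.68 and without Lenti-AS 2 it was 0.53. It was 0.75 without Lenti-GFP 1 and 0.48 without Lenti-GFP 2. In GRCr8, the span of Shh overlaps that of LOC102546975, a long noncoding RNA gene with no row in the count table. Whether their exons overlap, and so whether the counts of Shh hold reads of that RNA, was not tested.

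The ratio of the ligands' counts within a sample can be compared between samples, since gene length is the same in all samples. There were 67.0 and 78.1 Dhh counts per Shh count in the Lenti-GFP samples and 48.7 and 47.4 in the Lenti-AS samples. Shh was 1.47% and 1.26% of the summed Dhh and Shh counts in Lenti-GFP and 2.01% and 2.07% in Lenti-AS. The groups did not overlap, but the smallest two-sided p of an exact permutation test of 2 samples against 2 is 0.333. These are ratios of read counts, not of molecules.

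Ptch1 encodes the receptor that holds Smoothened inactive and is also a target of the GLI factors. The annotated promoter of rat Ptch1 (RefSeq, GRCr8) holds the GLI consensus GACCACCCA on the strand opposite the gene, which reads TGGGTGGTC on the strand of the gene, 172 to 164 bases upstream of the annotated start. It is shown because Ptch1 is the member with this motif, beside the promoters of Dhh, the ligand of these cells, and Sufu, the member with the largest fitted fold change, in which it was not found. Each line gives the 250 bases upstream of the start on the strand of the gene, with the motif in capitals.
Ptch1 (chr17:1555321-1555570, + strand): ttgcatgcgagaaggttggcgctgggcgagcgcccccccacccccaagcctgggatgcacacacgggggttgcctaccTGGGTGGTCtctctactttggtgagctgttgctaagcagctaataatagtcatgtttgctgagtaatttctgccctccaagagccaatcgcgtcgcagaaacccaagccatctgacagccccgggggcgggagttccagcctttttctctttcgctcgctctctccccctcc
Dhh (chr7:131935353-131935602, - strand): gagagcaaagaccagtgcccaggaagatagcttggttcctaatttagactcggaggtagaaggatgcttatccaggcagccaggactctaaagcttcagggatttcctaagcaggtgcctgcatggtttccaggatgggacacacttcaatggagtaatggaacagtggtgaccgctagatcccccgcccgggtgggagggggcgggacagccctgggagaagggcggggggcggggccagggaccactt
Sufu (chr1:255198939-255199188, + strand): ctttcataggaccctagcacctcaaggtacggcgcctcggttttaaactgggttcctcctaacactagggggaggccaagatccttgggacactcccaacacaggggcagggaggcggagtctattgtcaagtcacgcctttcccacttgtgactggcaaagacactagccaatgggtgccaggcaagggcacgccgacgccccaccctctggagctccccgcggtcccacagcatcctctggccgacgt

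The motif was searched with all 9 letters, on both strands, in windows of 300 bases that reach 50 bases past the start. It occurred in 1 of the 7 members with a window in the table and in 0.385% of all 33469 promoters. Allowing 1 other letter, it occurred in the same member only and in 7.33% of all promoters. Of the other pathway genes listed, 59 had a window, and the exact motif occurred in that of Ulk3, which encodes a kinase that acts on GLI proteins. Shh and Gli1 had no window.

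Ptch1 had 85.4 and 84.9 CPM in Lenti-GFP and 105 and 99.9 CPM in Lenti-AS. The Lenti-GFP samples were 0.488 CPM apart and the Lenti-AS samples 5.10 CPM, with 14.6 CPM between the groups. The Lenti-GFP mean was 85.1 ± 0.345 CPM and the Lenti-AS mean 102 ± 3.61 CPM (SD, n = 2 for each). The log2 fold change was 0.27 (standard error 0.060, 95% interval 0.12 to 0.42; unadjusted p = 0.00449, adjusted p = 0.0874 by edgeR), a fold change of 1.20. DESeq2 gave an adjusted p = 0.00436, but the fold change lies under 1.3, so Ptch1 was called by neither test.

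Hhip encodes a membrane glycoprotein that binds Hedgehog ligands and is also a GLI target. It had 2 and 1 counts in Lenti-GFP and 0 and 2 counts in Lenti-AS. All samples were under a floor of 3 counts, which is 0.0316 to 0.0399 CPM at this depth, so Hhip was not detectable and no fold change is given.

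Smo, the transducer, had 44.0 and 45.2 CPM in Lenti-GFP and 45.9 and 48.7 CPM in Lenti-AS. The groups were 0.759 CPM apart, less than the spread within either. The fitted log2 fold change was 0.085 (standard error 0.069, 95% interval -0.084 to 0.25, adjusted p = 0.506 by edgeR).

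Sufu encodes a protein that binds GLI factors and restrains them. It had 4.53 and 4.17 CPM in Lenti-GFP and 8.42 and 5.75 CPM in Lenti-AS, from 423, 395, 738 and 432 counts. Both Lenti-AS samples were higher, but the 1.21 CPM between the groups was less than the 2.67 CPM between the Lenti-AS samples, of which Lenti-AS 1 was the higher. The Lenti-GFP mean was 4.35 ± 0.257 CPM and the Lenti-AS mean 7.08 ± 1.89 CPM (SD, n = 2 for each). The log2 fold change of 0.71 was the largest among the members (standard error 0.21, 95% interval 0.20 to 1.21), and the unadjusted p = 0.0145 became an adjusted p = 0.137 by edgeR, while DESeq2 gave an adjusted p = 0.0308. The value depended on Lenti-AS 1: it was 0.40 without that library and 0.95 without Lenti-AS 2. In GRCr8, the span of Sufu overlaps those of 2 long noncoding RNA genes, 1 on each strand. Whether their exons overlap those of Sufu, and so whether its counts hold their reads, was not tested.

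The GLI factors had few counts. Gli1, the target gene most often read as a sign of pathway activity, had 36 and 27 counts in Lenti-GFP and 27 and 27 in Lenti-AS, which is 0.386 and 0.285 CPM against 0.308 and 0.359 CPM. The groups overlapped. The fitted log2 fold change was -0.0098 (standard error 0.36, adjusted p = 0.990 by edgeR). Its 95% interval, from 0.536-fold to 1.84-fold, shows how little counts this low can tell of Gli1. The sign turned to 0.022 with library totals in place of TMM factors and to 0.10 without Lenti-AS 1, and the value was -0.12 without Lenti-AS 2. Arhgap9, whose position overlaps that of Gli1, had at most 6 counts in a sample.

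Gli2, the main activator of the family, had 0.482 and 0.633 CPM in Lenti-GFP and 0.764 and 0.652 CPM in Lenti-AS, from 45 to 67 counts. The groups were 0.0188 CPM apart, against 0.151 CPM between the Lenti-GFP samples. The fitted log2 fold change was 0.35 (standard error 0.30, 95% interval -0.39 to 1.08, adjusted p = 0.534 by edgeR).

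Gli3, the main source of GLI repressor, had 2.91 and 2.38 CPM in Lenti-GFP and 3.70 and 3.05 CPM in Lenti-AS, from 226 to 324 counts. Both Lenti-AS values exceeded both Lenti-GFP values by at least 0.132 CPM, less than the 0.529 and 0.651 CPM within the groups. The fitted log2 fold change was 0.35 (standard error 0.20, 95% interval -0.13 to 0.83, adjusted p = 0.350 by edgeR), and the value was 0.20 without Lenti-AS 1 and 0.48 without Lenti-AS 2. A pseudogene, LOC120098021, lies within the span of Gli3 in GRCr8. The fitted values of Gli2 and Gli3 were alike, and neither passed the test.

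**Figure D2:**
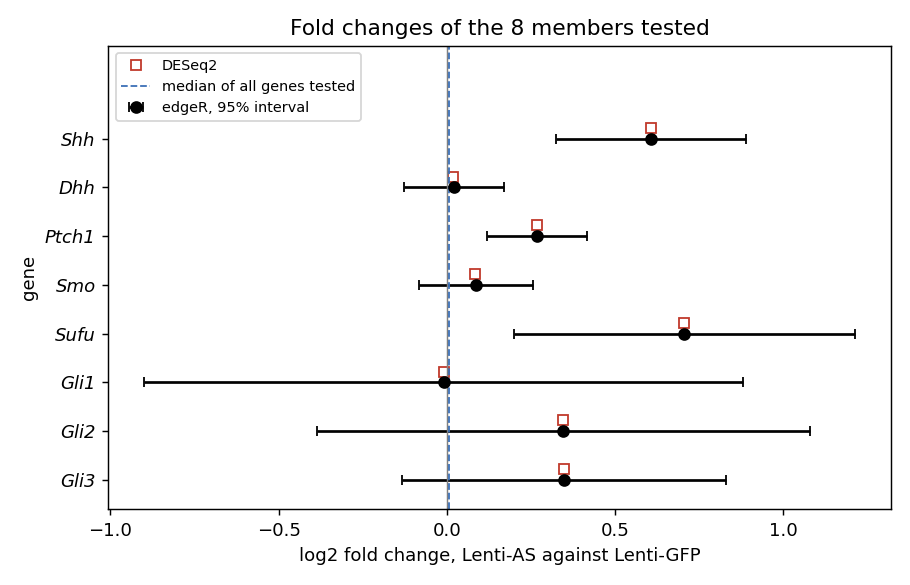
Log2 fold change of the 8 members tested, Lenti-AS against Lenti-GFP, by edgeR (points, with bars for the 95% interval) and by DESeq2 (open squares). The intervals of Shh, Ptch1 and Sufu lie above 0 before adjustment, that of Dhh runs from -0.13 to 0.17, and that of Gli1 is the widest.

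The rest of the pathway was read from 5 lists with 82 genes, of which 67 had a row and 64 were tested. EdgeR called 0 of these 64 genes in either direction, where it called 1.31% of all genes tested higher and 0.667% lower. At an unadjusted p under 0.05, 10 were higher and 4 lower (15.6% and 6.25%), where 12.5% and 9.37% of all genes tested were. DESeq2 called 4 higher and 0 lower (6.25% and 0%), against 3.92% and 1.12% of all genes. Both Lenti-AS samples lay above both Lenti-GFP samples in 22 genes and below in 11 (34.4% and 17.2%), against 27.7% and 27.2% of all genes. The median log2 fold change over the 64 genes was 0.036.

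Of the genes for ligand acylation, release and transport, 4 were tested. Scube1, which encodes a secreted protein of a family that helps release lipid-bearing Hedgehog ligand, had 346 and 331 CPM in Lenti-GFP and 395 and 427 CPM in Lenti-AS. The groups were 48.5 CPM apart, more than the spread within either (log2 fold change 0.28 ± 0.062, SE; adjusted p = 0.0849 by edgeR). Its relative Scube3 had 16.6 and 14.3 CPM against 24.5 and 16.0 CPM, with overlapping groups. Disp1, the transporter that exports the ligand, had 31.2 and 29.1 CPM against 29.3 and 31.8 CPM, also with overlap (log2 fold change 0.022, 95% interval -0.16 to 0.21). The remaining Hedgehog ligand, Ihh, had 6 to 20 counts in a sample.

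Among the coreceptors, Lrp2, an endocytic receptor that binds SHH, had 101 and 106 CPM in Lenti-GFP and 72.9 and 95.5 CPM in Lenti-AS (log2 fold change -0.30 ± 0.13, SE; adjusted p = 0.244 by edgeR). Both Lenti-AS samples were lower, by 5.54 CPM, against 22.6 CPM between them. The coreceptor Cdon and the glypican Gpc3, which competes with Patched for the ligand, had 3.09 to 4.07 CPM and 2.63 to 3.14 CPM over the 4 samples, with overlapping groups. No coreceptor was called by DESeq2, and 0 of the 3 tested had an unadjusted p under 0.05 by edgeR.

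The list of cytoplasmic regulators, of which 23 were tested, had 3 genes higher and 4 lower at an unadjusted p under 0.05 (13.0% and 17.4%, against 12.5% and 9.37% of all genes) and a median log2 fold change of 0.014. Prkaca, a catalytic subunit of protein kinase A, had 24.5 and 23.8 CPM in Lenti-GFP and 43.2 and 32.3 CPM in Lenti-AS (log2 fold change 0.64 ± 0.14, SE; adjusted p = 0.0788 by edgeR and 0.000470 by DESeq2). Prkacb, another catalytic subunit, had 33.4 and 33.6 CPM against 34.5 and 34.2 CPM (log2 fold change 0.036, adjusted p = 0.771 by edgeR). Gsk3b, a kinase that phosphorylates GLI proteins after protein kinase A, had 12.3 and 12.6 CPM against 20.8 and 16.1 CPM (log2 fold change 0.57 ± 0.13, SE; adjusted p = 0.0931 by edgeR and 0.00575 by DESeq2). In Prkaca and Gsk3b, as in Sufu, Lenti-AS 1 was the highest sample.

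Mgrn1, which encodes a ubiquitin ligase that acts on Smoothened, had 17.0 and 14.7 CPM in Lenti-GFP and 22.7 and 22.1 CPM in Lenti-AS (log2 fold change 0.50 ± 0.093, SE; adjusted p = 0.0598 by edgeR and 0.00138 by DESeq2). Csnk1a1, a casein kinase of the same phosphorylation series as Gsk3b, had 350 and 352 CPM against 320 and 319 CPM, and Cul1, a scaffold of the ubiquitin ligase that processes GLI proteins, 264 and 272 CPM against 240 and 237 CPM. Both were lower in both Lenti-AS samples by more than the spread within the groups (adjusted p = 0.197 and 0.145 by edgeR). Prkar1a, a regulatory subunit that restrains protein kinase A, had 312 CPM in both Lenti-GFP samples and 348 and 279 CPM in Lenti-AS. The Lenti-AS samples thus lay on either side.

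Of the 16 primary cilium genes tested, 13 had overlapping groups (81.2%, against 45.1% of all genes tested), 1 was higher and 0 lower at an unadjusted p under 0.05 by edgeR (6.25% and 0%, against 12.5% and 9.37%), and DESeq2 called 0. Their log2 fold changes ran from -0.15 to 0.25 with a median of 0.017, which was 0.084 without Lenti-AS 1 and -0.053 without Lenti-AS 2. Dync2h1, the motor of transport back from the tip of the cilium, had 118 to 136 CPM over the 4 samples, Kif3a, a motor of outward transport, 77.6 to 81.7 CPM, and Ift80 72.0 to 80.8 CPM.

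Of the genes described as GLI targets, 18 were tested, 14 of them with a fitted value above 0, and the median log2 fold change was 0.25. The share above 0 over all genes tested was 51.3%. Ccnd1 and Ccnd2 encode D-type cyclins, which drive the passage through G1 and respond to many signals besides Hedgehog. Ccnd1 had 586 and 615 CPM in Lenti-GFP and 778 and 684 CPM in Lenti-AS (log2 fold change 0.28 ± 0.076, SE; adjusted p = 0.117 by edgeR), and Ccnd2 167 and 171 CPM against 201 and 202 CPM (log2 fold change 0.26 ± 0.051, SE; adjusted p = 0.0688 by edgeR). In both genes the groups did not overlap.

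Ccne1, which encodes cyclin E1, had 5.88 and 5.70 CPM in Lenti-GFP and 9.87 and 7.91 CPM in Lenti-AS (log2 fold change 0.62 ± 0.15, SE; adjusted p = 0.0946 by edgeR and 0.0105 by DESeq2) and was the target called by DESeq2. Sfrp1, a secreted Wnt antagonist, had 605 and 633 CPM against 587 and 543 CPM (log2 fold change -0.13, adjusted p = 0.278 by edgeR).

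**Figure D3:**
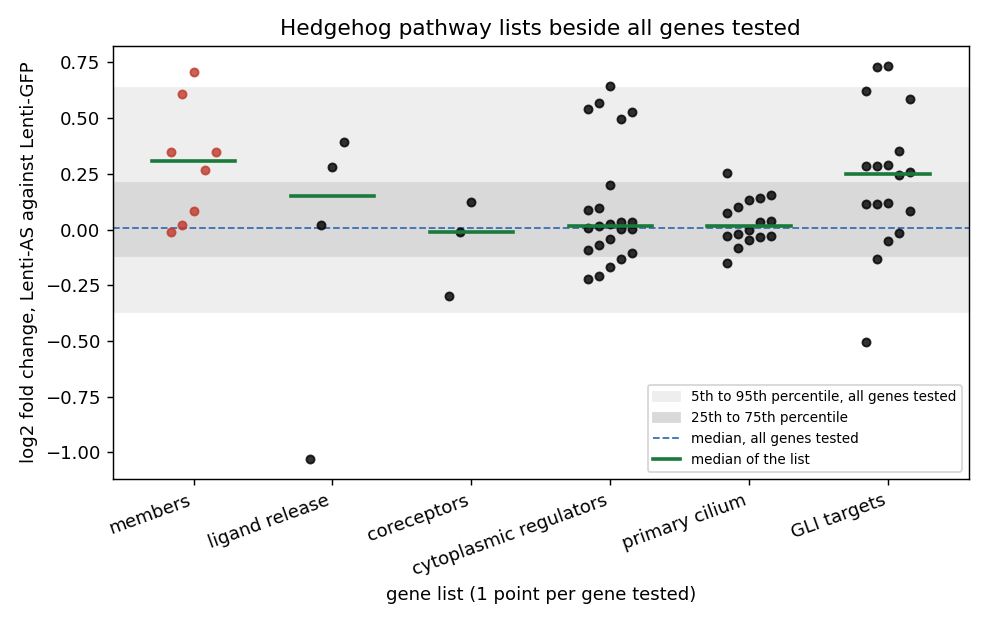
Log2 fold change of every gene tested in the members and the 5 pathway lists, by edgeR, with 1 point per gene and a green line at the median of each list. The grey bands hold the 5th to 95th (-0.37 to 0.63) and the 25th to 75th percentiles (-0.12 to 0.21) of all 12446 genes. The bands show the spread of single genes and are no measure for a median over a list. The medians are 0.31 for the members, 0.25 for the targets and 0.017 for the cilium genes.

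In nerve, the cells known to respond to DHH with Ptch1 and Gli1 are perineurial cells and fibroblasts, so their markers were read in the same samples. In bulk RNA, more cells of a type and more RNA per cell cannot be told apart. Of 9 fibroblast markers measured, 5 (Dcn, Lum, Dpt, Thy1 and Sfrp2) had at most 3 counts in any sample. Their list summed to 1004 and 863 CPM in Lenti-GFP, 2480 CPM in Lenti-AS 1 and 419 CPM in Lenti-AS 2, almost all from Col1a1 and Col1a2, collagen genes that SCs in culture also express. Without those, the list summed to 8.16 and 9.16 CPM in Lenti-GFP and 9.36 and 8.94 CPM in Lenti-AS, and the groups overlapped. Most of this remainder came from Pdgfra and Pi16. Pdgfra had 3.08 and 4.07 CPM in Lenti-GFP and 4.06 and 3.83 CPM in Lenti-AS, with overlapping groups. Pi16 had 4.99 and 5.02 CPM against 5.24 and 5.09 CPM, higher in both Lenti-AS samples (adjusted p = 0.869 by edgeR). In Lenti-AS 1 and Lenti-AS 2, Ptch1 had 105 and 99.9 CPM and Sufu 8.42 and 5.75 CPM. Any relation of these values to the collagen sums was not tested.

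Of the 7 perineurial markers, Lypd2 and Msln were under the low-count minimum and 5 were under 1 CPM in every sample. Their list summed to 197 and 192 CPM in Lenti-GFP and 216 and 238 CPM in Lenti-AS, mostly from Itgb4, an integrin that SCs also express. Itgb4 had 165 and 160 CPM in Lenti-GFP and 183 and 203 CPM in Lenti-AS (adjusted p = 0.119 by edgeR), and the sum of the list was higher in both Lenti-AS samples. Slc2a1 had 30.7 and 30.1 CPM in Lenti-GFP and 31.1 and 33.9 CPM in Lenti-AS. Krt19 had 0.471 and 0.485 CPM in Lenti-GFP and 0.764 and 0.505 CPM in Lenti-AS. These were also higher in both Lenti-AS samples (adjusted p = 0.468 and 0.499 by edgeR). Cldn1, at 0.186 to 0.225 CPM, and Tenm2, at 0.399 to 0.750 CPM, were lower in both (adjusted p = 0.767 and 0.405 by edgeR). Endothelial markers summed to 19.2 to 25.7 CPM and were lower in both Lenti-AS samples, with Cdh5 and Emcn under the minimum. Most of this sum was Tek, a receptor tyrosine kinase, at 19.8 and 20.2 CPM in Lenti-GFP and 15.3 and 14.7 CPM in Lenti-AS (log2 fold change -0.42, adjusted p = 0.0559 by edgeR and 0.00324 by DESeq2, which called it lower), while the groups overlapped for Vwf. Myeloid markers summed to 3.52 to 4.60 CPM and were higher in both, with Ptprc, Aif1, Itgam, Cx3cr1 and Adgre1 under the minimum. Cd68 had 1.29 and 1.18 CPM in Lenti-GFP and 1.84 and 1.80 CPM in Lenti-AS (unadjusted p = 0.0336, adjusted p = 0.194 by edgeR). Csf1r had 1.87 and 1.92 CPM against 1.94 and 2.27 CPM (adjusted p = 0.686 by edgeR), and the groups overlapped for Cd14. The part of these cells in the members' values was not tested.

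**Figure D4:**
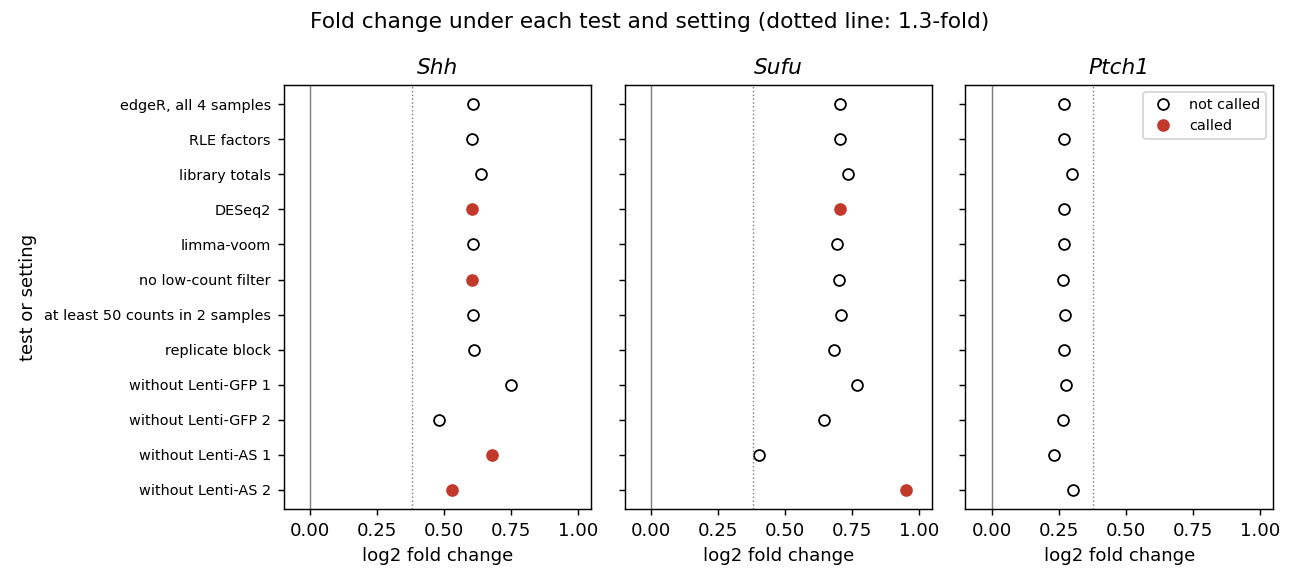
Log2 fold change of Shh, Sufu and Ptch1 under the main test and each alternative test, normalization, filter, design and left-out sample. Filled points passed both cut-offs and the dotted line marks a 1.3-fold change. The fits without a Lenti-AS sample also called more of all genes tested than the main fit. Shh stays between 0.48 and 0.75 and passes in 4 of 11 alternatives, Sufu runs from 0.40 to 0.95 and passes in 2, and Ptch1 stays between 0.23 and 0.30, under the line.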

How the data were processed

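RNA-seq counts of rat SCs in culture, from 2 Lenti-GFP and 2 Lenti-AS samples, were analysed. Reads of 50 bp in pairs were aligned to rn6 (with hisat2 in the paper's methods, whereas the submitters' processing notes name GSNAP) and counted on RefSeq exons with featureCounts, and the authors deposited whole-number counts per gene without normalization. Versions, the strand setting and the treatment of reads with several matches are not given in the sources used here. The table held 17949 genes and 1 repeated header line, which was dropped. Groups were taken from the sample titles.

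A gene needed 10 counts or more in 2 samples or more, which 12446 genes had, and these were fitted by edgeR 4.0.16 under R 4.3.3 (TMM factors, glmQLFit with default settings, glmQLFTest, Lenti-AS against Lenti-GFP, no replicate term). Benjamini-Hochberg adjustment covered all 12446 genes, and a call needed an adjusted p under 0.05 with at least a 1.3-fold change. Standard errors and 95% intervals came from the F statistic. Library totals were between 74024323 and 96185890 counts and the biological coefficient of variation was 12.1%. Replicates were not copies of each other: the mean chi-square statistic of a gene was 32.4 for the Lenti-GFP pair and 103 for the Lenti-AS pair. The count floor covers counting error only. The test was tried on simulated counts before use.

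DESeq2 1.42.0, limma-voom (limma 3.58.1), other normalizations and filters, a replicate block and leaving out each sample were alternatives. DESeq2 gave no adjusted p for 2413 genes, Gli1 and Gli2 among them.

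The members and gene lists were chosen with earlier results of these data known, and the lists were written by hand. The genes named are the members, the genes of each list called by edgeR or DESeq2 and the 3 of highest mean CPM in each list, with markers, and the 3 genes of like mean level nearest in pattern to Dhh and to Ptch1. Ihh, Ulk3 and Prkacb, outside this rule, were named after their values were seen. Listed genes with no row (15 of 82) were not analysed here, and some others are not reported here. Promoter windows were from RefSeq on GRCr8, a different build from that of the counts, and matched 7 of 9 members. Figures were drawn with matplotlib 3.10.9 in Python 3.11.15.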

Additional observations from a re-analysis of the deposited data

How the results depend on the processing

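Over the 11 alternative tests, normalizations, filters, designs and left-out samples, the fitted values of Shh, Ptch1, Smo, Sufu, Gli2 and Gli3 kept their direction wherever the gene was tested. The number of members called higher was 2 with DESeq2, 1 with no low-count filter and 0 to 2 with a sample left out, and the number called lower was 0 throughout. Shh reached a log2 fold change of 0.61 (adjusted p = 0.000614) with DESeq2 and 0.60 (adjusted p = 0.0456) with no low-count filter, and 0.48 to 0.75 with a sample left out. Sufu reached 0.70 (adjusted p = 0.0308) with DESeq2 and 0.40 to 0.95 with a sample left out. Among the pathway genes, DESeq2 called 4 higher and the fit with no low-count filter 1, and leaving out a sample gave 0 to 9 higher and 0 to 1 lower. A fit that leaves out a sample assumes that the lone sample of its group varies like the other group, and over all genes it called 0 higher and 1 lower without either Lenti-GFP sample, 570 and 271 without Lenti-AS 1 and 1266 and 253 without Lenti-AS 2. The cause of these differences was not tested.

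Dhh and Gli1, both near 0, changed sign. Dhh ran from -0.037 to 0.077 with a sample left out. Gli1 was 0.022 with library totals, 0.0040 with limma-voom and -0.21 to 0.23 with a sample left out. It was not tested at a minimum of 50 counts. The median log2 fold change of the ligand release list was 0.28 at that minimum, where Ihh drops out, and 0.066 to 0.20 with a sample left out. That of the cytoplasmic list was 0.047 with library totals, a scaling under which the median over all genes was 0.039. With a sample left out the values were -0.053 to 0.084 for the cilium list, -0.13 to 0.13 for the coreceptors, which changed sign, and 0.18 to 0.25 for the targets.

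Same-numbered samples share no stated culture or day and their deviations from the group means were not related, with a correlation over genes of -0.0123. The fit with a replicate block called 0 members and 0 pathway genes, and 3 higher and 14 lower of all genes tested. It has 1 residual degree of freedom in place of 2. Low counts limit what can be read of Gli1, Gli2 and Hhip most. No test of these groups can separate the virus's reporter from its antisense RNA, since every Lenti-AS sample received both.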

Other observations

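The genes nearest in pattern to Dhh and Ptch1 were read over the 4 samples as a description, by the Euclidean distance of mean-centred log2(CPM + 0.5) values among genes within 2-fold of their mean level. For Dhh, among 258 candidates, these were Tln1, the cytoskeletal linker talin, at a distance of 0.0436, the secreted glial factor gene Metrn at 0.0471 and Hnrnpu, a nuclear RNA-binding protein, at 0.0489. Their log2 fold changes were 0.053, -0.0082 and -0.0090. Metrn had 890.5 and 837 CPM in Lenti-GFP and 834 and 883 CPM in Lenti-AS.

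For Ptch1, among 3055 candidates, the nearest were Smc4, a condensin subunit used in mitotic chromosome compaction, at 0.0290, the transferrin receptor gene Tfrc at 0.0332 and Loxl1, an enzyme of elastic fibre cross-linking, at 0.0343. Smc4 had 117 and 119 CPM in Lenti-GFP and 148 and 140 CPM in Lenti-AS, with a log2 fold change of 0.29 (adjusted p = 0.0662 by edgeR). Tfrc and Loxl1 had log2 fold changes of 0.26 and 0.28 (adjusted p = 0.109 and 0.0594 by edgeR). The nearest genes were chosen from many: 33 of the candidates for Dhh and 74 of those for Ptch1 lay within a distance of 0.1.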
